A study of Mus musculus with 6 samples.

Results

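The 9 genes described here encode the liver enzymes that carry the sulfur and methyl groups of methionine: Bhmt, Bhmt2, Dmgdh, Cbs, Cth, Mat1a, Gnmt, Ahcy and Gldc. They were found by symbol in the deposited expression table, and all 9 were among its 15960 genes. Liver RNA of Cyp2e1-/- (knockout) and Cyp2e1+/+ (wild type) mice was sequenced in 3 libraries per genotype. Both groups are labelled C57BL/6 and 22 weeks old, and the series' design text gives 14 weeks of high-fat diet. No sex, no chow-fed group and no method of making the knockout are given in the sources used here, and the labels do not say whether each library is a separate animal. CYP2E1 is a P450 enzyme abundant in hepatocytes, with ethanol and acetone among its substrates. The members were chosen with the knockout against wild type differences of these same libraries in view. Their differences are therefore given as a description, with standard errors and no p-values.

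Methionine is activated to S-adenosylmethionine (SAM), the methyl donor of the cell, which after giving up its methyl group is hydrolysed to homocysteine. Homocysteine can then be remethylated to methionine, in liver with betaine or with methylfolate as the methyl source, or it can be committed to cysteine by transsulfuration, from which glutathione and taurine are made. Liver is a main site of both routes, and betaine is made there and in kidney from choline.

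Of the 9 genes, 3 lie side by side on chromosome 13 (GRCm38). Bhmt (minus strand) starts 18338 bases from the end of Bhmt2. Bhmt2 (minus strand, start at 93674302) and Dmgdh (plus strand, start at 93674436) are divided by 133 bases and are transcribed away from each other. The other 6 are on chromosomes 2 (Ahcy), 3 (Cth), 14 (Mat1a), 17 (Cbs and Gnmt) and 19 (Gldc). RefSeq promoter windows (GRCm38.p6) were matched for 7 of the 9, all but Cth and Mat1a. For Cbs and Gnmt the annotated start of the window, 31637205 and 46729165, lies inside the gene span given below, which ends at 31637233 and 46729211. The last bases of these windows therefore fall within the gene span. The stretches before the starts of the members with the largest difference in either direction for which a window was matched are shown, together with the stretch that Bhmt2 and Dmgdh share. Each is read 5′ to 3′ on the strand of the gene, the shared one on the plus strand, and the capitals mark matches to the motifs searched.
Bhmt (chr13:93637759-93638008, minus strand): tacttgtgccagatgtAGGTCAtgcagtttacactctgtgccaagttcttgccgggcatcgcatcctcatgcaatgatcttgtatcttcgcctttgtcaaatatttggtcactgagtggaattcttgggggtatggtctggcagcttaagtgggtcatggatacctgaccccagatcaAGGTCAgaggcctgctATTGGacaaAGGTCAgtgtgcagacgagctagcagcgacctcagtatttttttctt
Bhmt2 and Dmgdh, shared (chr13:93674303-93674435): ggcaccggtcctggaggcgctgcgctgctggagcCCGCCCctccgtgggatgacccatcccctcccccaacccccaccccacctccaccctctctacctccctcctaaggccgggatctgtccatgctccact
Gldc (chr19:30175442-30175691, minus strand): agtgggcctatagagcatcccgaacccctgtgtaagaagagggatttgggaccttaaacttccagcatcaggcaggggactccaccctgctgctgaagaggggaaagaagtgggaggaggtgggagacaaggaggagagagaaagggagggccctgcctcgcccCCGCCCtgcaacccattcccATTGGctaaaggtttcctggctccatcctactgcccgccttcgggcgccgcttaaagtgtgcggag
Cbs (chr17:31637206-31637455, minus strand): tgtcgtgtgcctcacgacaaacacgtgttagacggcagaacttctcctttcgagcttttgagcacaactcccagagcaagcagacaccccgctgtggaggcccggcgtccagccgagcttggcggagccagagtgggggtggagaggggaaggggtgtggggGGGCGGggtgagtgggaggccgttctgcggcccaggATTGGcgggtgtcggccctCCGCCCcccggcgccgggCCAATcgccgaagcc

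The motifs, searched on both strands of the 250 bases before the start, were the following: TATAAA as the promoter box named for it, CCAAT for the factor NF-Y, GGGCGG as the GC box, AGGTCA as the half-site of many nuclear receptors, TGATGNAA as the element bound by ATF4, and AGAACA as the glucocorticoid receptor half-site. None of the matched motifs overlapped another. The Bhmt window held AGGTCA 3 times, at 234 to 229, 72 to 67 and 47 to 42 bases before the start, and CCAAT once. At least 1 AGGTCA was in 14.0% of the 32851 windows in the RefSeq table, and 3 or more in 0.131%. Ahcy and Gnmt held AGGTCA once each, and Bhmt2, Dmgdh, Gldc and Cbs held none in these windows. The stretch between Bhmt2 and Dmgdh had 69.9% G and C and 1 GC box, against 48.0% and no GC box before Bhmt, and a median of 52.4% G and C over all windows. GC boxes were in 32.7% of all windows and CCAAT in 33.8%, and the Cbs window held both motifs 2 times. The first motif, the ATF4 element and the glucocorticoid receptor half-site were in 12.4%, 3.45% and 16.1% of all windows and in none of the 7. These are matches of letters in a fixed window and no measure of binding.

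Cyp2e1 itself stood at 254, 247 and 271 FPKM (the authors' unit, fragments divided by transcript length and by the library's mapped total) in knockout replicates 1, 2 and 3, and at 7427, 5942 and 6071 in the wild type (limma, adjusted p = 6.7e-08). Libraries were estimated at 9270000 to 12100000 fragments, the deepest being knockout replicate 1, and replicate 1 of both genotypes had the fewest genes at 1 FPKM or more (9628 and 9655, against 9823 to 9963). Hepatocyte markers (Alb, Ttr, Apoa1, Serpina1c and Cps1) summed to 43170 to 50839 FPKM in the knockout and 39637 to 46230 in the wild type, the exocrine pancreas markers analysed to at most 1.23, and the 1 kidney marker analysed reached at most 0.0800. Marker sums that did not overlap between genotypes were those of cholangiocytes (18.9 to 21.7 FPKM in knockout, 25.4 to 32.4 in wild type, nearly all Spp1) and stellate cells (84.5 to 96.9 and 98.8 to 114). Those of macrophages and Kupffer cells were 60.2 to 118 and 114 to 130, those of sinusoidal endothelium 51.6 to 71.5 and 47.6 to 65.1, of lymphocytes 1.38 to 2.12 and 1.51 to 2.37, of adipose tissue 7.51 to 10.0 (all but Fabp4 near 0) and 6.12 to 9.83, and of red cells 123 to 236 and 144 to 343. Of all markers tested 1 passed, the erythroid heme synthesis gene Alas2, which fell from 44.1 to 50.01 FPKM in the wild type to 8.65 to 10.4 in the knockout (limma, adjusted p = 2.0e-05). Hba-a1, the other red cell marker analysed, overlapped between genotypes (log2 difference 0.08; limma, adjusted p = 0.979). Of the stellate markers Dcn alone was separated between genotypes, with a mean of 63.0 FPKM in the knockout and 73.8 in the wild type. Of the 7 macrophage and Kupffer markers 6 had a negative difference and 1 a positive one (median -0.55). Of these 7, 2 were separated downward, against 10.0% of all tested genes, and none passed (limma). They were Clec4f (mean 29.9 FPKM in the knockout, 45.1 in the wild type) and Cd68 (3.78 and 6.12). In bulk tissue fewer cells of a type and less RNA per cell cannot be told apart, and the part of these cells in the values below was not tested.

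Transcripts of the homocysteine methyltransferases Bhmt and Bhmt2, of Dmgdh, Mat1a and Gldc were higher in the knockout, and those of the transsulfuration enzymes Cbs and Cth were lower. Bhmt was 2.39 times, Gldc 1.97 times, Mat1a 1.39 times, Bhmt2 1.38 times and Dmgdh 1.21 times the wild type mean, while Cbs was at 0.750 and Cth at 0.542 of it. For 5 members every knockout value lay above every wild type value, for 2 every knockout value lay below, and for 2 (Gnmt and Ahcy) the groups overlapped. Over all 9968 genes tested, 5.32% were separated upward and 10.0% downward. All 9 members passed the filter on low values. In the fit across all genes 3 of the 9 were past the threshold of 0.05 on the adjusted p, which 0.762% of tested genes passed. Of these, Bhmt and Gldc were higher and Cth was lower, against 0.472% and 0.291% of all tested genes. Since the members were chosen on this contrast, nothing is read from either count. The median log2 difference was 0.27 over the members and -0.03 over all tested genes.

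**Figure D1:**
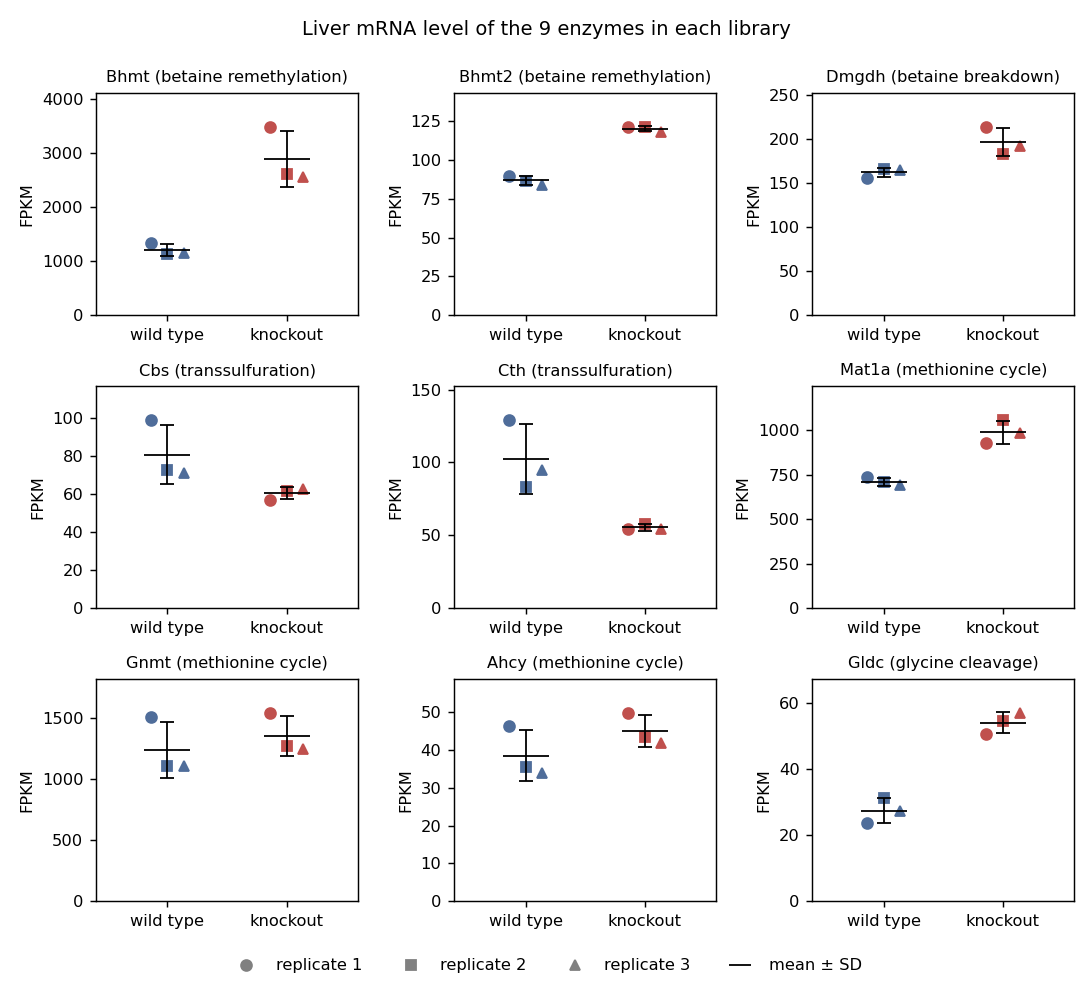
FPKM of each of the 9 enzymes (vertical axes, each from 0) in the 3 wild type and 3 knockout libraries. Symbols mark the replicate number and black bars the group mean ± SD. Bhmt, Bhmt2, Dmgdh, Mat1a and Gldc are higher in every knockout library than in any wild type library, Cbs and Cth are lower, and in Gnmt and Ahcy replicate 1 of each genotype is the highest.

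Betaine-homocysteine methyltransferase, encoded by Bhmt (gene 12116, chromosome 13, 93616891 to 93637758), is the zinc enzyme that moves a methyl group from betaine to homocysteine. It stood at 3473, 2616 and 2550 FPKM in knockout replicates 1 to 3 and at 1330, 1141 and 1148 in the wild type. Replicate 1 was the highest library in each genotype, and the lowest knockout library was well above the highest wild type one. The group means were 2880 ± 515 and 1206 ± 107 FPKM (SD, n = 3 each), with a log2 difference of 1.24 (SE 0.16). Within pairs of the same replicate number the knockout was 2.61, 2.29 and 2.22 times the wild type. Bhmt ranked 32nd of all genes by mean FPKM, and its share of the summed FPKM of the 9 genes was 47.9% to 53.5% in the knockout against 32.3% to 33.5% in the wild type. Of the 31-base words in its transcript, 68.5% also occur in annotated transcripts of other genes, 63.4% in Gm5096 and 36.5% in the pseudogene Bhmt-ps1. Neither name was found in the deposited expression table. Bhmt reads could therefore have been divided or shared by the counting, in a way the table does not show.

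Bhmt2 (gene 64918, chromosome 13, 93656097 to 93674302) encodes a related enzyme that takes its methyl group from S-methylmethionine. Its values were 121, 121 and 118 FPKM in the knockout and 89.9, 86.6 and 83.9 in the wild type. The spread within each genotype was small, at 1.43% of the mean in the knockout and 3.46% in the wild type, and the groups were separate. The log2 difference was 0.46 (SE 0.11). Of the 31-base words of the Bhmt transcript 1.63% occur in Bhmt2, and 11% of those of Bhmt2 occur in transcripts of other genes. Bhmt was 21.6 to 28.7 times as abundant per length as Bhmt2 in the knockout and 13.2 to 14.8 times in the wild type.

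Dmgdh (gene 74129, chromosome 13, 93674436 to 93752823) encodes the mitochondrial dehydrogenase of dimethylglycine, the product that betaine leaves behind, and starts 133 bases from Bhmt2. It measured 214, 183 and 193 FPKM in the knockout and 156, 166 and 165 in the wild type. The lowest knockout value was close to the highest wild type value, and the log2 difference of 0.27 (SE 0.11) fell to 0.18 without replicate 1 of both genotypes. Sardh, which encodes the sarcosine dehydrogenase that acts next and is not a member, had values of 181, 181 and 194 FPKM in the knockout and 158, 145 and 125 in the wild type (log2 difference 0.38; limma, adjusted p = 0.305). It passed without replicate 1 of both genotypes (limma, adjusted p = 0.00905) and with sample weights, by which limma counts more variable libraries for less (adjusted p = 0.0139). None of the 9 other genes tested within 1 Mb of Bhmt passed, and none of them was separated between genotypes. Around all 9 members together 0 of 94 neighbours passed (limma, Benjamini-Hochberg), 5 had an unadjusted p under 0.05, against 9.93% of all tested genes, and 11 were separated in either direction, against 15.4%. Without replicate 1 of both genotypes 7 of the neighbours passed, against 11.9% of all tested genes.

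Both enzymes of transsulfuration were lower in the knockout. Cth (gene 107869, chromosome 3, 157894248 to 157925081), whose product cystathionine gamma-lyase releases cysteine, had 54.2, 58.0 and 54.3 FPKM in the knockout and 129, 83.4 and 94.8 in the wild type. The knockout libraries lay close together (SD 2.18 FPKM) while the wild type libraries were spread (SD 23.7), with wild type replicate 1 the highest. The log2 difference was -0.85 (SE 0.16), and it was between -0.98 and -0.67 when any single library was left out. Cbs (gene 12411, chromosome 17, 31612623 to 31637233), whose product cystathionine beta-synthase joins homocysteine to serine, was at 57.2, 61.7 and 63.0 FPKM in the knockout and 98.97, 72.6 and 71.0 in the wild type. Here too wild type replicate 1 stood above the others, and without that library the log2 difference went from -0.39 (SE 0.15) to -0.24. The level of Cth was 0.862 to 0.948 of that of Cbs in the knockout and 1.15 to 1.34 times that of Cbs in the wild type.

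**Figure D2:**
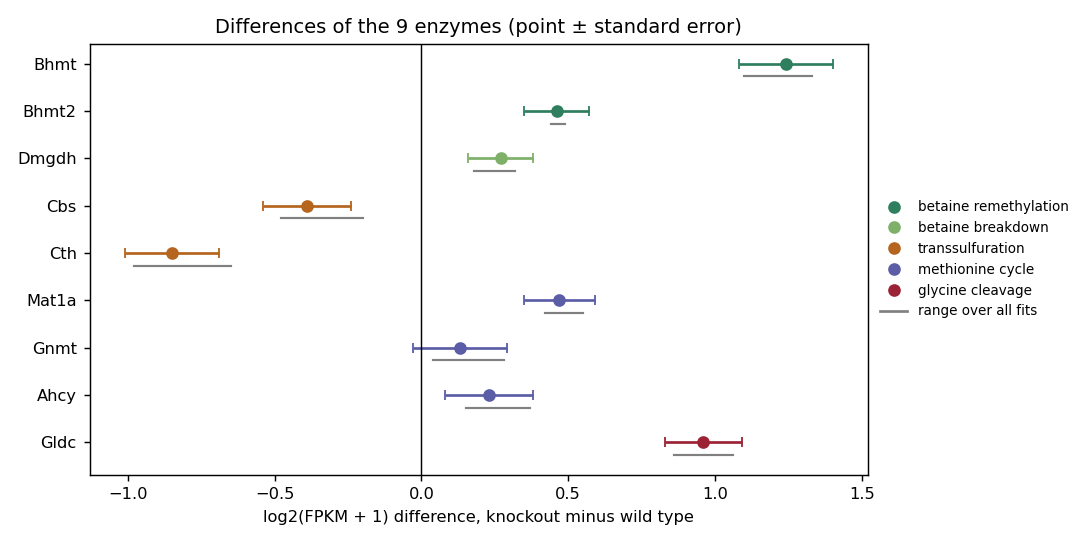
Difference between knockout and wild type on the log2(FPKM + 1) scale for each enzyme, with the limma standard error as error bars and colour for the role of the enzyme. The grey line under each point spans its values over the reported fit and 14 alternatives, in none of which any of the 9 changed sign. Among these, the replicate block, the fit without the trend and the fit with no filter cannot move a difference. Bhmt is at 1.24 and Cth at -0.85.

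Set against each other, remethylation and transsulfuration were apart in every library. The mean log2(FPKM + 1) of Bhmt and Bhmt2 less that of Cbs and Cth was 3.52, 3.21 and 3.21 in knockout replicates 1 to 3 and 1.61, 2.0 and 1.91 in the wild type. The lowest knockout value was above the highest wild type value, and the 2 genotypes differed by 1.47 on the log2 scale (3.32 ± 0.18 against 1.84 ± 0.21, SD, n = 3 each). Without replicate 1 of both genotypes the difference was 1.26. As a ratio of FPKM, Bhmt was 64.0, 45.1 and 47.0 times Cth in the knockout and 10.3, 13.7 and 12.1 times Cth in the wild type. Replicate 1 held the highest ratio among knockouts and the lowest among wild types, so the pair of replicate 1 set the widest gap. Folate-dependent remethylation, by Mtr (methionine synthase) and its reductase Mtrr, was expressed at a far lower level than Bhmt. Mtr stood at 0.43 to 1.24 FPKM and Mtrr at 1.90 to 2.26 over the 6 libraries, with overlapping genotypes, and neither passed (log2 difference -0.05 for each; limma, adjusted p = 0.979 and 0.958). These 2 genes were named after their values were seen.

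**Figure D3:**
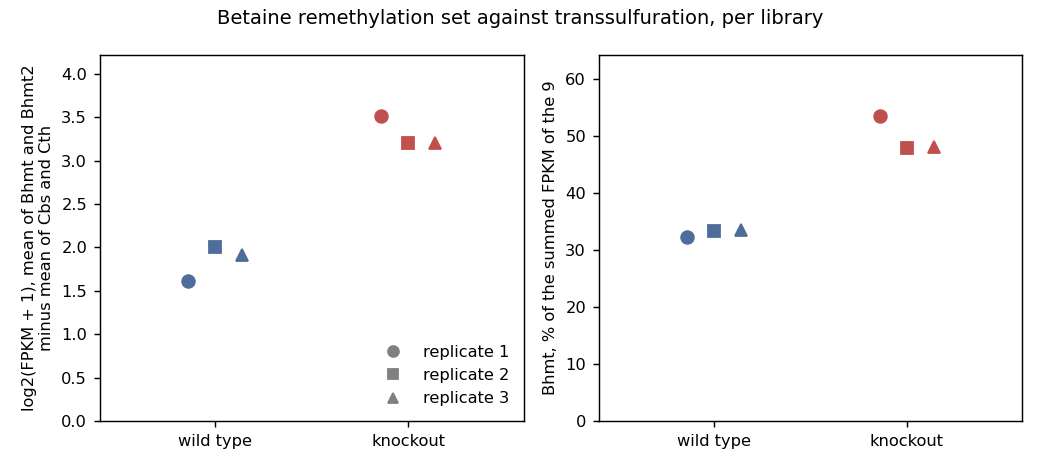
Left, mean log2(FPKM + 1) of Bhmt and Bhmt2 minus that of Cbs and Cth in each library; right, Bhmt as a percentage of the summed FPKM of the 9 enzymes. Symbols mark replicate numbers. The knockout libraries sit at 3.21 to 3.52 and 47.9% to 53.5%, above wild type at 1.61 to 2.0 and 32.3% to 33.5%.

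In the methionine cycle itself Mat1a was separated between genotypes, and Gnmt and Ahcy overlapped. Mat1a (gene 11720, chromosome 14, 41105012 to 41124428), the liver form of the enzyme that makes SAM, measured 926, 1056 and 984 FPKM in the knockout and 735, 708 and 690 in the wild type. All knockout values were above all wild type values, with a log2 difference of 0.47 (SE 0.12). Its profile over the 6 libraries was the closest of all member pairs to that of Bhmt2, with a root-mean-square distance of 0.0565 between their log2 profiles after centring each on its own mean. Gnmt (gene 14711, chromosome 17, 46725664 to 46729211), which encodes the glycine methyltransferase that uses up SAM in liver, had 1542, 1271 and 1252 FPKM in the knockout and 1507, 1105 and 1113 in the wild type. Replicate 1 was high in both genotypes, at 1.22 and 1.36 times the mean of the other 2 libraries, and the groups overlapped (log2 difference 0.13, SE 0.16). The ratio of Mat1a to Gnmt was 0.600, 0.831 and 0.787 in the knockout and 0.488, 0.641 and 0.620 in the wild type, with knockout replicate 1 below 2 of the 3 wild type libraries.

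Ahcy (gene 269378, chromosome 2, 155059310 to 155074497), which encodes the hydrolase that splits S-adenosylhomocysteine into homocysteine and adenosine, was listed at 49.6, 43.4 and 41.8 FPKM in the knockout and 46.2, 35.4 and 33.8 in the wild type. Replicate 1 was again the highest of each genotype, and the groups overlapped (log2 difference 0.23, SE 0.15). These values are uncertain. Of the 31-base words of the Ahcy transcript 76.5% also occur in Gm4737, a copy annotated on chromosome 16 (gene 11615, 46152985 to 46155077), and 93.2% of the words of Gm4737 occur in Ahcy. Gm4737 was listed at 1370, 1597 and 1558 FPKM in the knockout and 1209, 1035 and 993 in the wild type, and so Ahcy held only 2.61% to 3.68% of the sum of both. All knockout values of Gm4737 were above all wild type values, but it did not pass (log2 difference 0.49, SE 0.14; limma, adjusted p = 0.203). The sum of both rows was 1553 ± 118 FPKM in the knockout and 1117 ± 121 in the wild type (SD, n = 3 each), a ratio of 1.39, against 1.17 for the Ahcy row alone. Gm4737 was examined because of the shared sequence, after the member values were known, and the table does not show how reads that fit both were assigned.

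**Figure D4:**
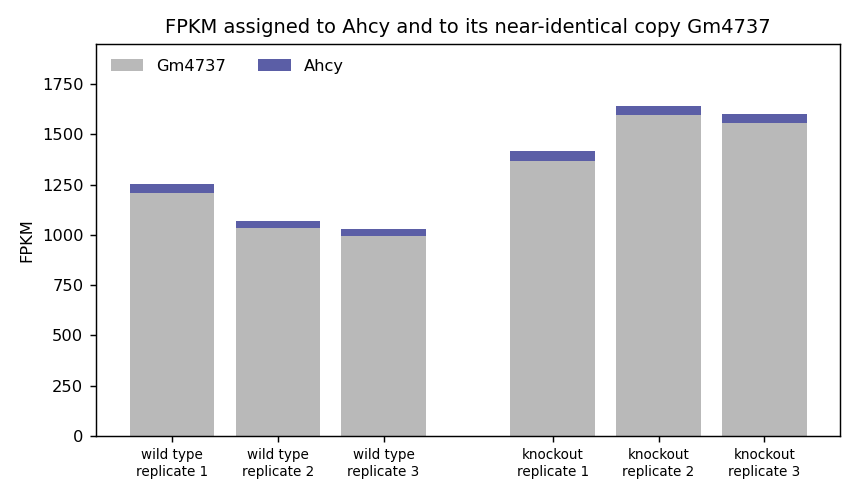
FPKM listed for Ahcy (blue) stacked on that of its near-identical copy Gm4737 (grey) in each of the 6 libraries, on an axis from 0. The Ahcy row holds 2.61% to 3.68% of each bar, and the sum is 1027 to 1255 FPKM in wild type and 1419 to 1640 in knockout.

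Gldc (gene 104174, chromosome 19, 30098441 to 30175441) encodes the glycine decarboxylase of the mitochondrial glycine cleavage system, which passes a carbon of glycine to folate. It was at 50.5, 54.5 and 56.8 FPKM in the knockout and 23.6, 31.1 and 27.4 in the wild type, so every knockout library was above every wild type library. The log2 difference was 0.96 (SE 0.13), and it was 0.86 to 1.06 when any single library was left out. The other parts of the system measured did not pass with all libraries. Amt, the aminomethyltransferase, ranged from 10.6 to 14.6 FPKM in knockout libraries and from 11.3 to 13.4 in wild type ones, and Dld, the dihydrolipoamide dehydrogenase shared with other complexes, from 53.6 to 64.7 and from 60.3 to 67.2. Gcsh, the lipoyl carrier protein, ranged from 48.6 to 58.9 in knockout libraries and from 62.0 to 64.7 in wild type ones. Gcsh was lower in every knockout library (log2 differences 0.01, -0.07 and -0.27 for Amt, Dld and Gcsh; limma, adjusted p = 0.991, 0.928 and 0.495), and these 3 genes were named after their values were seen. Gcsh passed without replicate 1 of both genotypes (log2 difference -0.37; limma, adjusted p = 0.0158) and with sample weights (-0.35; limma, adjusted p = 0.0247), lower in the knockout where Gldc was higher. In these settings 11.9% and 11.5% of all tested genes passed, and the first was chosen after the data were seen. Gldc was 3.90 to 4.76 times as abundant per length as Amt in the knockout and 2.04 to 2.72 times in the wild type.

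The widest ranges over the 6 libraries were those of Bhmt (1.61 on the log2 scale) and Gldc (1.24). By the distance between centred log2 profiles, the tested genes most like Bhmt were Acot3 (0.175), an acyl-CoA thioesterase gene, Slc16a5 (0.178), a gene of the monocarboxylate transporter family, and Cyp8b1 (0.183), the sterol 12-alpha-hydroxylase gene of bile acid synthesis. Cyp8b1 measured 343, 260 and 270 FPKM in the knockout and 184, 143 and 121 in the wild type, with replicate 1 highest in each genotype as in Bhmt. Those most like Gldc were Insig2 (0.105), which encodes a sterol-sensing retention protein of the endoplasmic reticulum, Slc25a51 (0.106), a mitochondrial NAD carrier gene, and Acmsd (0.125), an enzyme gene of tryptophan breakdown. Insig2 had 69.6, 73.5 and 67.1 FPKM in the knockout and 32.7, 35.7 and 34.8 in the wild type. Among the members, Gnmt and Ahcy were nearly as close to each other (0.0590) as Mat1a and Bhmt2.

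The wider network of one-carbon, betaine, glycine and sulfur genes was examined through 8 lists that exclude the 9 members. Of 102 such genes tested, 0 rose and 0 fell (limma, Benjamini-Hochberg), against 0.762% of all tested genes. At an unadjusted p under 0.05 there were 16 (15.7%), against 9.93% of all tested genes. Their median log2 difference was -0.05, and 17 were separated between genotypes, 8 of them upward and 9 downward, where 15.4%, 5.32% and 10.0% of all tested genes were separated in either direction, upward and downward. The number of genes that passed stayed at 0 without knockout replicate 1, and was 19 with sample weights (18.6%, against 11.5% of all tested genes). Without replicate 1 of both genotypes, a choice made after the data were seen, 20 of the 102 (19.6%) passed, 13 higher and 7 lower, against 11.9% of all tested genes, and 4 passed without wild type replicate 1 alone, against 1.17%.

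Genes that make or use the betaine route did not pass with all libraries. Of 11 choline and betaine genes tested 7 had a positive and 4 a negative difference (median 0.04). Besides Sardh, the most abundant was Pipox, a peroxisomal oxidase of sarcosine and pipecolate, at 141 ± 9.11 FPKM in the knockout and 138 ± 4.52 in the wild type (n = 3 each). The widest difference in this list was that of Chka, a choline kinase gene named after its values were seen, at 4.73, 4.37 and 4.98 FPKM in knockout libraries and 2.63, 1.65 and 2.66 in wild type ones (log2 difference 0.80; limma, adjusted p = 0.0832). Chka and Chkb, the other choline kinase gene, both passed without replicate 1 of both genotypes (limma, adjusted p = 0.0207 and 0.0124) and with sample weights (limma, adjusted p = 0.00538 and 0.0160). In these settings 11.9% and 11.5% of all tested genes passed. Among 11 genes of the methionine cycle and folate remethylation (median -0.05) Adk, the adenosine kinase that removes the adenosine made by AHCY, stood at 363 ± 7.17 and 403 ± 18.8 FPKM, and the B12 carrier Tcn2 at 46.9 ± 4.25 and 46.5 ± 4.77. Among 16 folate genes (median -0.04) the folate enzymes Aldh1l1 and Ftcd were at 262 ± 29.7 and 119 ± 6.98 FPKM in the knockout and 245 ± 24.5 and 122 ± 13.1 in the wild type. Of 11 glycine and serine genes (median -0.08), Glyat, which joins glycine to acyl groups, measured 172 ± 10.2 FPKM in the knockout and 236 ± 9.78 in the wild type (log2 difference -0.46; limma, adjusted p = 0.140). All 3 knockout values of Glyat lay below all wild type values, and the gene passed without replicate 1 of both genotypes (limma, adjusted p = 0.00267) and with sample weights (limma, adjusted p = 0.00412). Agxt, the alanine-glyoxylate aminotransferase gene, stood at 106 ± 2.02 and 115 ± 28.9 FPKM.

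Downstream of transsulfuration, Cdo1, whose product oxidizes cysteine on the way to taurine, had 981, 808 and 796 FPKM in the knockout and 652, 512 and 524 in the wild type. Its lowest knockout value was above its highest wild type value, opposite in direction to Cth and Cbs. Cdo1 did not pass with all libraries (log2 difference 0.62, limma, adjusted p = 0.120), but did without wild type replicate 1 (0.73; limma, adjusted p = 0.0324), without replicate 1 of both genotypes (0.63; limma, adjusted p = 2.0e-04) and with sample weights (0.63; limma, adjusted p = 0.00148). In these settings 1.17%, 11.9% and 11.5% of all tested genes passed. Over the other settings the adjusted p of Cdo1 ranged from 0.0688 to 0.487 (limma). The sulfurtransferase gene Tst stood at 155 ± 6.25 and 166 ± 35.6 FPKM, and the median of the 14 cysteine, taurine and sulfur oxidation genes was 0.05. Of 9 genes of glutathione synthesis and turnover 7 had a negative difference (median -0.07), with Lap3 at 98.6 ± 4.66 FPKM in the knockout and 111 ± 6.44 in the wild type and Gclm, the modifier subunit of glutamate-cysteine ligase, at 46.1 ± 3.26 and 47.7 ± 3.42. Among 15 SAM-dependent methyltransferase genes 10 had a negative difference (median -0.04). Mettl7b stood at 251 ± 26.7 and 322 ± 34.9 FPKM, and the indolethylamine methyltransferase gene Inmt at 226 ± 25.5 and 239 ± 75.4. Of 15 genes of methionine salvage and polyamines, 14 had a negative difference, with a median of -0.09, and Adi1 and Kyat3 were at 49.3 ± 3.99 and 45.9 ± 6.89 FPKM in the knockout and 51.2 ± 2.37 and 42.7 ± 1.81 in the wild type.

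**Figure D5:**
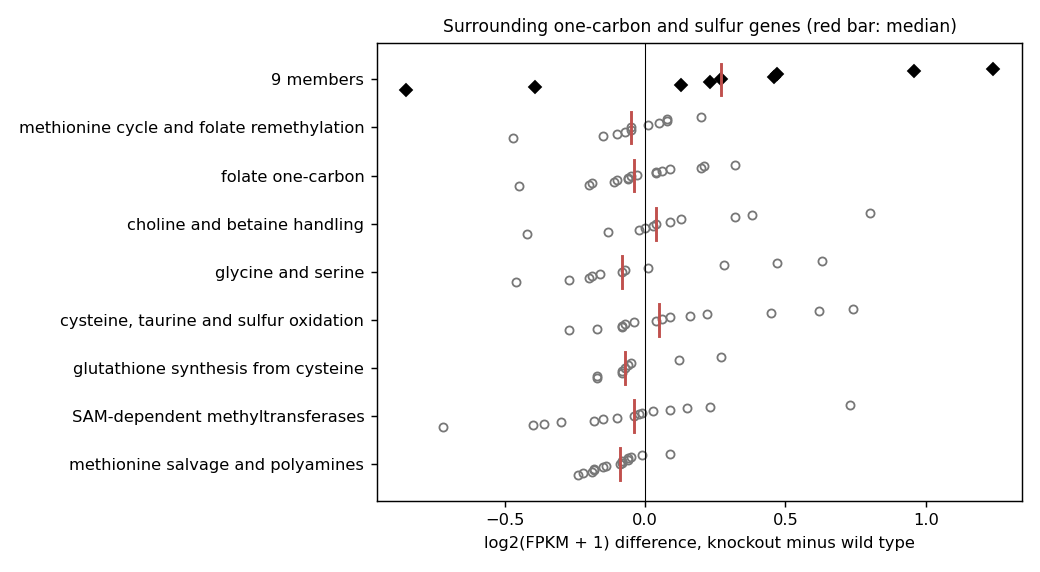
Difference between knockout and wild type on the log2(FPKM + 1) scale for the 9 members (black) and for each tested gene of 8 surrounding lists (open circles), with the list median as a red bar. The list medians lie between -0.09 and 0.05, and that of the members, which were chosen on this contrast, at 0.27.

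Enzymes of amino acid breakdown differ along the liver lobule, so genes of the periportal and pericentral zones were set beside the members (Cps1 is also among the hepatocyte markers). Of 12 periportal genes 10 had a positive difference (median 0.39). Of these 12, 6 were separated upward and 1 downward, against 5.32% and 10.0% of all tested genes, and 1 rose, against 0.472%. The gene that rose was Etnppl, which encodes a phospholyase of phosphoethanolamine, at 43.7, 45.4 and 44.9 FPKM in the knockout and 13.3, 11.8 and 11.8 in the wild type (log2 difference 1.78; limma, adjusted p = 5.6e-05), and it passed in every alternative run. The summed FPKM of the periportal genes was 5171 to 5860 in the knockout and 4126 to 4387 in the wild type, without overlap. This sum is weighted to abundant genes: Pck1, Ass1, Cps1 and Asl had knockout means of 795, 1700, 677 and 508 FPKM. Their wild type means were 285, 1386, 463 and 310, and none of them passed (limma). Cyp2f2, Gls2 and Arg1 were among the periportal genes that overlapped (log2 differences 0.09, -0.13 and 0.14). Hsd17b13 was lower in every knockout library (-0.20). Of 10 pericentral genes 8 had a positive difference (median 0.13), 2 were separated upward and 2 downward, and none passed (limma). Among them Rgn, which encodes regucalcin, stood at 535 ± 46.8 and 718 ± 79.2 FPKM and Glul, the glutamine synthetase of the cells around the central vein, at 362 ± 22.0 and 288 ± 22.0 (n = 3 each; limma, adjusted p = 0.272 and 0.361). Both passed without replicate 1 of both genotypes (limma, adjusted p = 0.00403 and 0.00935) and with sample weights (limma, adjusted p = 0.0146 and 0.0258), in opposite directions. In these settings 11.9% and 11.5% of all tested genes passed. The part of zonation in the values of the 9 members was not tested.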

How the data were processed

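Values are FPKM per gene for 3 knockout and 3 wild type liver libraries. They were deposited by the authors with 2 decimals and are named FPKM per the file headers. The submitters' processing notes name HISAT and mm10. Not given in the sources used here are the program that made the FPKM, its annotation and any use of strand. FPKM carry no counts, so limma 3.58.1 (R 4.3.3; eBayes with trend) was run on log2(FPKM + 1) for the 9968 genes that reached 1 FPKM in 3 or more samples, with Benjamini-Hochberg adjustment and a threshold of 0.05. Fold changes on this scale understate those of low genes. "Rose" and "fell" are used of genes past that threshold. The labels do not tie libraries to separate animals, so a p-value covers only the spread among these libraries, which may be technical.

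The members, lists and alternatives were chosen with earlier results of these data known. Named genes are the members, Cyp2e1, per list up to 3 genes past the threshold or else the 2 most abundant tested, called genes within 1 Mb of a member, and the 3 genes nearest in profile to the 2 members with the widest range. Other names were chosen after their values were seen.

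Samples with the same replicate number deviated from their group means together (correlations over tested genes of 0.300, 0.198 and 0.157 for numbers 1, 2 and 3). All are over 0.1, so an alternative used the replicate, numbered in the titles, as a block. For knockout replicate 3 the highest value was with number 2 of the wild type (0.212). Deviations sum to 0 within a group, so the 3 correlations are not independent. Total counts are not in the values used. Low values of genes of 450 to 1200 bases lay within 0.15 of a whole step for 69.3% to 73.8% of values (30% by chance), which gave the depths printed, as estimates. At these depths the members held about 790 to 100699 fragments per library. No count test was run on the steps. The fit was tested on simulated data. Sequences, positions and gene models came from RefSeq (GRCm38.p6) and GENCODE M21 transcripts, both of the assembly mm10 names, and 15915 genes matched by identifier. The values of 1 gene of the surrounding lists are not reported here.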

Additional observations from a re-analysis of the deposited data

How the results depend on the processing

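No member changed sign in any of 14 alternatives. Among these, the replicate block, the fit without the trend and the fit with no filter cannot move a gene's difference. The count of genes past the threshold was 76, and it was 64 with a pseudocount of 0.1, 72 with quantile normalization, 70 with median ratio scaling, 56 without the trend and 72 with the replicate as a block. It was 32 with no filter on low values, 1151 with sample weights and 1183 without replicate 1 of both genotypes. Leaving out 1 library gave 211, 29 and 37 for knockout replicates 1, 2 and 3 and 117, 32 and 32 for those of the wild type. The surrounding-pathway count of 0 was 19 with sample weights, 20 without replicate 1 of both genotypes and 0 to 4 with 1 library left out, 4 being without wild type replicate 1. It was 0 in every other alternative, the replicate block included. The causes of these moves were not tested. Remethylation minus transsulfuration (1.47) was 1.86 with Bhmt alone as remethylation, 1.02 with Mtr and Mtrr added, 1.26 without replicate 1 of both genotypes and 1.36 to 1.56 with any 1 library left out. Pairing by replicate number left it at 1.47. With each number once per genotype the pairing cannot move a difference of group means, so this is no check. The block ended the call of Acmsd (limma, adjusted p = 0.0651) and changed no call of the other 25 genes named by the rule. Over all alternatives, 36 of 364 values of these 26 genes ended a call and 11 gained one. The lost calls were those of Acot3, Slc16a5, Cyp8b1, Slc25a51 and Acmsd. With no filter, for example, Acot3, Slc16a5 and Cyp8b1 did not pass (limma, adjusted p = 0.148, 0.172 and 0.145). The calls of Cyp2e1, Etnppl and Insig2 held in every alternative. The members were left out of this comparison, and genes named after their values were seen were not compared one by one. For Ahcy and Bhmt sequence shared with other genes limits what a gene-level FPKM can show.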

Other observations

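Beyond the members and Cdo1, the genes of the surrounding lists that passed without wild type replicate 1 included Got1 and Nnmt, named after their values were seen. Got1, a cytosolic aspartate aminotransferase that also acts on cysteine sulfinate, stood at 56.4, 65.0 and 61.6 FPKM in the knockout and 48.9, 32.3 and 29.9 in the wild type. Nnmt, which spends SAM on nicotinamide, stood at 37.9, 45.2 and 46.8 and at 38.1, 20.1 and 21.6. In both genes wild type replicate 1 lay nearer to the knockout values than the other wild type libraries did. With all libraries neither passed (limma, adjusted p = 0.130 for Got1 and 0.238 for Nnmt). Without wild type replicate 1 the log2 differences were 0.95 and 1.01 (limma, adjusted p = 0.00933 and 0.0114).

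Mat2a, the widely expressed form of SAM synthetase, stood at 16.7, 20.6 and 22.9 FPKM in the knockout and 21.6, 31.1 and 32.3 in the wild type, and replicate 1 was the lowest library of each genotype. It did not pass with all libraries (log2 difference -0.47; limma, adjusted p = 0.401) and did without replicate 1 of both genotypes (-0.53; limma, adjusted p = 0.00928). Sds, the serine dehydratase of periportal cells, stood at 82.1, 147 and 150 FPKM in the knockout and 106, 71.9 and 64.0 in the wild type, so that in replicate 1 the knockout was below the wild type and in the other 2 replicate numbers above it. Its log2 difference was 0.63 with all libraries (limma, adjusted p = 0.430) and 1.12 without replicate 1 of both genotypes (limma, adjusted p = 6.4e-05). Leaving out replicate 1 of both genotypes was a choice made after the data were seen, and 11.9% of all tested genes passed under it.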
